A study of Mus musculus with 8 samples.

Results

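The 10 genes described here are H19, Igf2, Plagl1, Dlk1, Meg3, Peg3, Mest, Cdkn1c, Grb10 and Igf2r, all imprinted in the mouse and all tied to growth of the embryo. They were taken by gene name from an expression array, which gave 25 probes of the 55681 probes and 10 of the 35019 gene names on it. H19, Igf2 and Plagl1 were already known from these data to be high in passage-8 cells when the 10 genes were put together, so the members were chosen by their signal on these arrays. For that reason every difference of these 10 genes that involves passage-8 cells is given as a description without a p-value. The low level of H19, Igf2 and Plagl1 in CD45-positive cells had a part in that choice too, so these 3 genes get no test against those cells. In at least 1 group both arrays read the gene well above background for all 10, as they did for 24635 of the 35019 names.

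The study measured total RNA from C57BL/6 mouse heart on 8 Agilent 1-colour arrays, 2 for each of 4 groups. CD45-negative cells (c-kit+/CD45-) grew out of pieces of left atrial appendage, a small pouch beside the atrium, that had been digested strongly (trypsin 0.25%, collagenase D 0.1%), and were then sorted. CD45-positive cells (c-kit+/CD45+) came from the same kind of culture, digested weakly (trypsin 0.05%, collagenase D 0.1%). Passage-8 cells are derivatives of the c-kit+/CD45+ cells after 8 passages in culture, and the control is biopsy tissue of the left ventricular wall. The labels name no genetic change, and the mice were 8 to 12 weeks old for the cells and 12 weeks for the ventricle. CD45 is the surface protein of white blood cells, and c-kit is a receptor used to sort progenitor and mast cells. The primary cell groups differed in both gate and digestion, whose effects cannot be told apart. Cells and ventricle also differed in the RNA extraction reagent, which likewise cannot be told apart from the difference between culture and tissue. Whether the 2 samples of a group are separate animals or cultures is not stated in the labels, and the spread behind each p-value may therefore be technical.

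Imprinted genes are transcribed mainly from the copy inherited from 1 parent. Many of them act on fetal growth: paternally expressed genes such as Igf2, Plagl1, Dlk1, Peg3 and Mest, and maternally expressed genes such as H19, Meg3, Cdkn1c, Grb10 and Igf2r. Most are high in fetal tissue and fall after birth, and several rise or fall together as a set known as the imprinted gene network. An expression array of this kind reads both parental copies together, so no value here is a value of one allele.

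H19 is a long noncoding RNA, and the array carries 7 probes along it, which are shown because 6 of them gave one picture of passage-8 cells and the most upstream gave another. They are numbered in the direction of transcription, with positions of build mm9 as the files give them.
H19 probe 1, chr7:149762417-149762476, minus strand: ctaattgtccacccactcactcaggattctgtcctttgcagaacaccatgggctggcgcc
H19 probe 2, chr7:149762173-149762232, minus strand: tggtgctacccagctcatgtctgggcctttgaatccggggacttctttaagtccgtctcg
H19 probe 3, chr7:149762113-149762172, minus strand: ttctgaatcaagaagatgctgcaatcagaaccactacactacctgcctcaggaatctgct
H19 probe 4, chr7:149761957-149762016, minus strand: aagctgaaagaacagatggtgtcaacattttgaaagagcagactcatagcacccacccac
H19 probe 5, chr7:149761756-149761815, minus strand: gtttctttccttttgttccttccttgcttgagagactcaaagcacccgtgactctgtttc
H19 probe 6, chr7:149761693-149761752, minus strand: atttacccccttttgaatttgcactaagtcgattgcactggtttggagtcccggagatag
H19 probe 7, chr7:149761492-149761551, minus strand: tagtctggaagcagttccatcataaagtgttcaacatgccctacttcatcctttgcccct

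The same RNA is the host of a microRNA, whose mature forms are shown with the seed (bases 2 to 8) in capitals, from RefSeq. The level of this microRNA was not measured here.
mmu-miR-675-5p: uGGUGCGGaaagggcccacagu
mmu-miR-675-3p: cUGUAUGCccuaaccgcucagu

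The RefSeq promoter table (GRCm38.p6) held windows for 8 of the 10 genes. The 250 bases before the start are printed for Plagl1 and Dlk1, which were high in passage-8 cells, and for Meg3, the neighbour of Dlk1, which differed there from the primary cells by at most 0.62 at its brightest probe. Capitals mark CG pairs, the sites of DNA methylation in mammals.
Plagl1, chr10:13090582-13090831, plus strand: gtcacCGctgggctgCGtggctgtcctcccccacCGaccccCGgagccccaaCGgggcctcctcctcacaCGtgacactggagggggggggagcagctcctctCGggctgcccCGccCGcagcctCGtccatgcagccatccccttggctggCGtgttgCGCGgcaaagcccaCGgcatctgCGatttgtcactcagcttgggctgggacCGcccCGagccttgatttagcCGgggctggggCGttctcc
Dlk1, chr12:109452573-109452822, plus strand: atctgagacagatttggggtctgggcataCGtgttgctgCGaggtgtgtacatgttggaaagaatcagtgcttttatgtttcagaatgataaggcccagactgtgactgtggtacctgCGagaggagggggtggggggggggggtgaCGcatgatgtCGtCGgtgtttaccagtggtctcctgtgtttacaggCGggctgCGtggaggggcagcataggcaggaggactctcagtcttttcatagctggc
Meg3, chr12:109540746-109540995, plus strand: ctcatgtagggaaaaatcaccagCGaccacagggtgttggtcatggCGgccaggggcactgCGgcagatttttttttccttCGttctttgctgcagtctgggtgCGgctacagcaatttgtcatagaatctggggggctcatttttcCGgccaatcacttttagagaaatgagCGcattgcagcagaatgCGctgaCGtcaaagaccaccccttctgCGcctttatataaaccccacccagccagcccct

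The full window of 300 bases, from 250 before to 50 after the start, held 26 CG pairs at Plagl1, 9 at Dlk1 and 13 at this start of Meg3. The median over all 32851 windows was 7, and 16.9% of windows held at least 26. The letters GGGGCCCC, a palindrome known to be bound by the PLAGL1 protein, were found in the window of Peg3 and in no other window of the 8 genes. They were found in 1.08% of all windows. The letters TATAAA, searched on both strands, were found at 1 of the 2 Meg3 starts and at no other start of the 8 genes, against 13.6% of all windows. Methylation was not measured, so these letters describe the sequence only.

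Every level below is log2 of an array's processed signal relative to that array's 75th percentile, so 0 means a spot as bright as that percentile. Probes differ in brightness for the same amount of RNA, so levels were compared between groups and never between genes. Where a gene has several probes, the probe with the highest mean over the 8 arrays stands for it. Each SE comes from the spread pooled over the 4 groups. In these bulk samples, fewer cells of a type and less RNA per cell cannot be told apart.

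Sort markers were read as a check of the labels. The CD45 gene, Ptprc, was 85.5-fold higher in the CD45-positive of the 2 primary groups (limma adjusted p = 0.00376), with 1 of 2 CD45-negative arrays well above background. CD45-positive cells also exceeded passage-8 cells in Ptprc, by 164-fold (limma adjusted p = 0.00172). Kit, the gene of c-kit, was well above background on 1 of the 2 CD45-negative arrays and on neither passage-8 array. Its level was -6.34 and -1.55 on the CD45-negative, -3.57 and -3.33 on the CD45-positive and -1.48 and -2.48 on the ventricle arrays. Neither sorted group was shown to carry more Kit than the ventricle. The differences were -1.97 for CD45-negative (limma adjusted p = 0.307) and -1.47 for CD45-positive cells (limma adjusted p = 0.444). The summed signal of 10 macrophage markers, in multiples of the 75th percentile, was 849.6 to 869.6 in CD45-positive cells and at most 98.8 in the other groups. Taken singly, 9 of the 10 passed as lower in the CD45-negative of the 2 primary groups. Itgam went the other way and was 3.12-fold higher there (limma adjusted p = 0.00465). The CD45-negative arrays lay far apart for Cd68 (-0.84 and 2.99) and Mrc1 (-3.78 and 1.08), but not for Itgam (5.83 and 6.06). That of 7 cardiomyocyte markers was 3122 to 3761 in the ventricle and at most 6.11 elsewhere. The 8 mesothelial markers, genes of the lining of the heart, summed to 33.4 to 37.6 in passage-8 cells and to at most 8.32 elsewhere. None of the 8 was below background on both arrays in passage-8 cells, CD45-positive cells or the ventricle. Against the ventricle, Muc16 was 35.2-fold lower in passage-8 cells, and Krt19 differed by -1.08 without passing. Upk3b and Upk1b did not pass between passage-8 and CD45-positive cells. The 9 fibroblast markers summed to 1443 to 1547 in CD45-negative cells, 1056 to 1063 in passage-8 cells and at most 634 elsewhere. Taken singly, 2 passed as higher and 2 as lower in passage-8 than in CD45-positive cells. The higher were Col1a2 (2.04-fold) and Lum (7.12-fold), and the lower Thy1 (31.4-fold) and Tcf21 (7.31-fold). Against CD45-negative cells, 0 of the 9 passed as higher in passage-8 cells and 5 as lower, with Thy1 241-fold lower. The part of these cell markers in the results below was not tested.

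**Figure D1:**
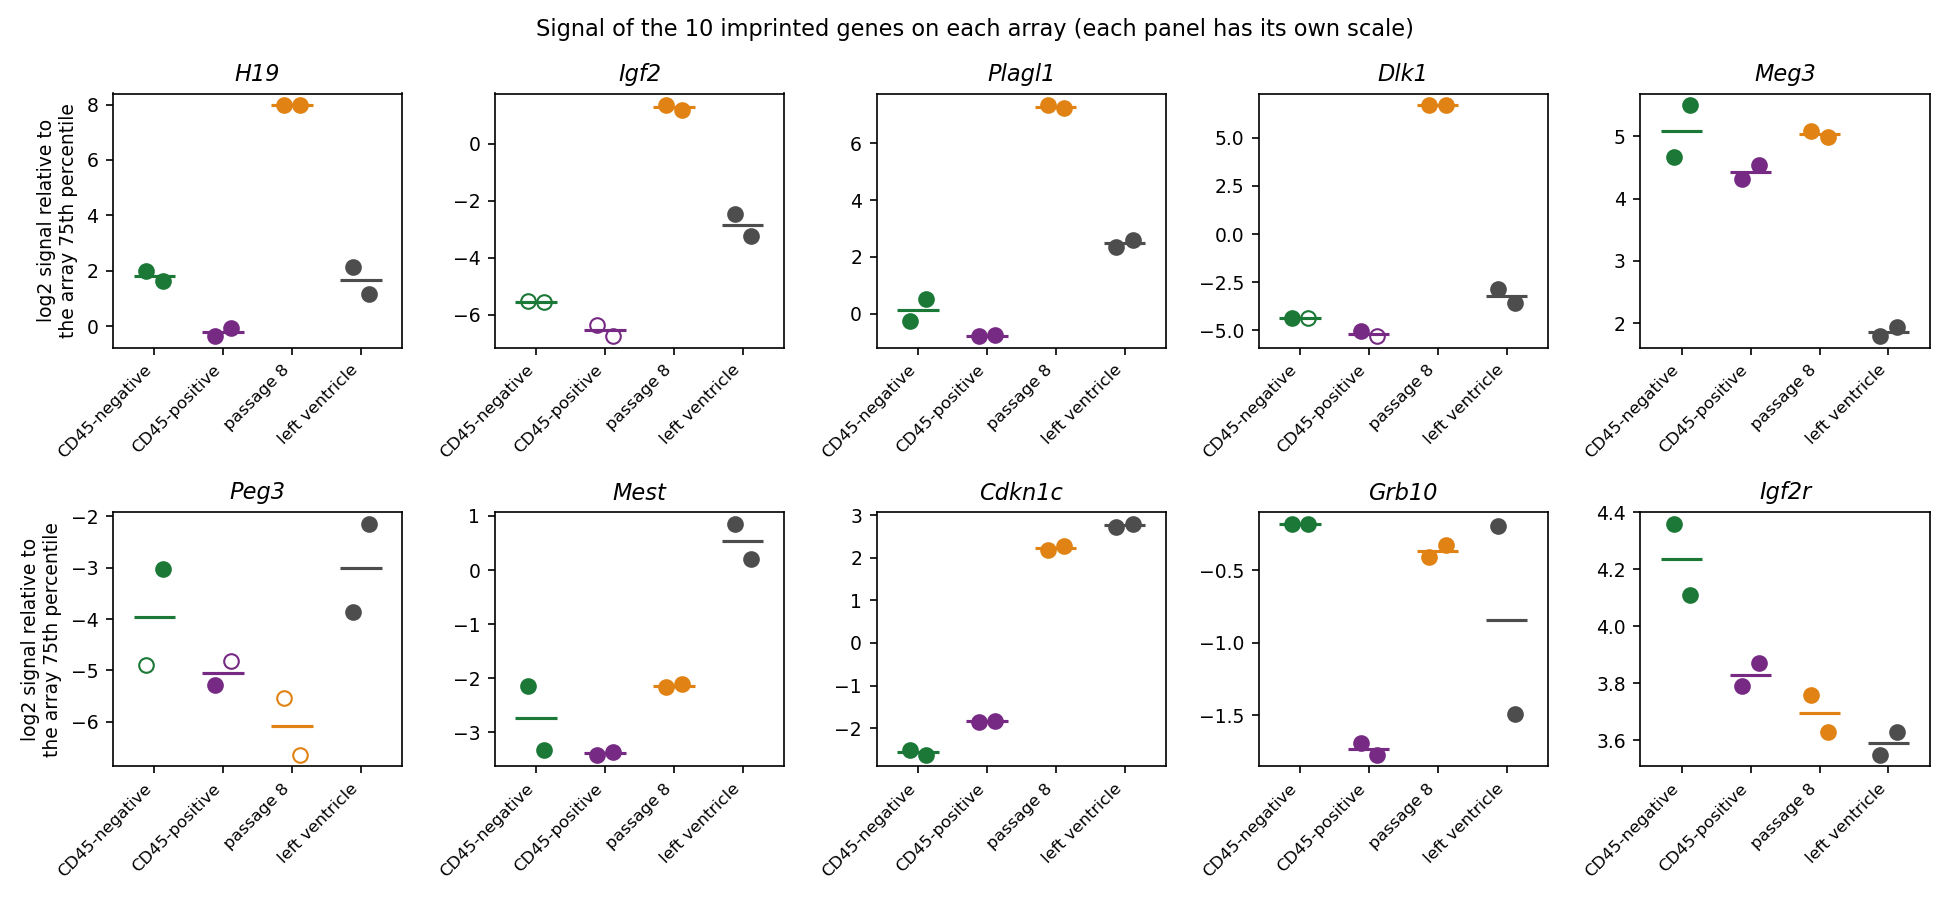
Level of each of the 10 genes on each array, as log2 signal relative to the array's 75th percentile (vertical axis), in the 4 groups (horizontal axis). Points are arrays, open where the probe was not well above background, and lines are means of the 2 arrays. H19, Igf2, Plagl1 and Dlk1 lie highest on both passage-8 arrays, Mest and Cdkn1c highest on both ventricle arrays, and Meg3 lowest there.

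H19 and Igf2 lie next to each other on chromosome 7 and share enhancers, with H19 read from the maternal and Igf2 from the paternal copy. Passage-8 cells carried far more of both than any other group. The H19 level at its last probe was 7.97 and 7.98 on the passage-8 arrays. CD45-negative cells read 2.01 and 1.62, CD45-positive cells -0.36 and -0.05 and the ventricle 2.14 and 1.17. At this probe, passage-8 arrays stood apart from all others, CD45-positive arrays were lowest, and CD45-negative and ventricle arrays overlapped. In log2 difference, passage-8 cells were above CD45-positive cells by 8.18 (SE 0.37), which is 290.3-fold. Against CD45-negative cells the difference was 6.17 (71.8-fold) and against the ventricle 6.32 (79.9-fold). CD45-negative cells exceeded CD45-positive cells by 2.02, and the difference of CD45-positive cells from the ventricle was -1.86, both without a test. The first of these was the largest of the 7 probes: probes 6 to 1 gave 1.56, 1.23, 0.82, 0.45, 0.36 and -0.32, and the mean of all probes gave 0.87. Between CD45-negative cells and the ventricle, a comparison that had no part in choosing the gene, H19 differed by 0.15 (SE 0.37, limma adjusted p = 0.756). Probes 6 to 1 gave -0.48, -0.89, -1.05, -1.30, -1.59 and -0.39 for it. The mean over all 7 probes put that difference at -0.79, and it did not pass in that form either.

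Probes 2 to 7 of H19, printed above, showed passage-8 cells above CD45-positive cells by log2 differences of 8.18 to 8.97. Probe 1 showed a difference of 1.43 (2.7-fold). Its levels were -3.03 and -2.99 in passage-8 cells, -4.22 and -4.66 in CD45-positive cells, -4.25 and -4.48 in the ventricle and -4.79 and -4.72 in CD45-negative cells. On both CD45-negative arrays this probe was not well above background, so passage-8 cells were at least 2.38-fold higher than these. Passage-8 arrays were still the highest at probe 1, but by far less than at the probe 244 bases downstream. No pair of H19 probes shares a run of more than 8 bases.

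Igf2 encodes insulin-like growth factor 2, the fetal growth factor of the network, and has 1 probe, at chr7:149839661-149839720 on the minus strand of mm9. Its level was 1.35 and 1.19 in passage-8 cells and -2.48 and -3.23 in the ventricle. CD45-negative cells read -5.52 and -5.55 and CD45-positive cells -6.35 and -6.75, and on these 4 arrays the spot was not well above background. Igf2 was thus measured in passage-8 cells and the ventricle and was below the limit of the array in both primary cell groups. In passage-8 cells it was at least 98.5-fold higher than in CD45-positive cells, at least 46.3-fold higher than in CD45-negative cells and 17.5-fold higher than in the ventricle (log2 difference 4.13, SE 0.31). A fold given as "at least" sets the bright group against the lowest signal that the dim arrays could tell from background. CD45-negative cells were at least 2.65-fold lower than the ventricle (log2 difference -2.68, SE 0.31, limma adjusted p = 0.00137). With normexp background correction, which adds an offset of 50 to every spot, that difference was -0.28 (limma adjusted p = 0.533) and the call was lost. The same correction gave log2 differences of 4.59, 3.54 and 3.26 for passage-8 cells against CD45-positive cells, CD45-negative cells and the ventricle.

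Igf2r encodes the receptor that carries IGF2 to lysosomes for breakdown, and it varied little. CD45-negative cells read 4.36 and 4.11, CD45-positive cells 3.79 and 3.87, passage-8 cells 3.76 and 3.63 and the ventricle 3.55 and 3.63. CD45-negative arrays were highest, and the passage-8 and ventricle ranges met at 3.63. CD45-negative cells exceeded the ventricle by 0.64 (SE 0.20, limma adjusted p = 0.0444), below the 2-fold minimum for a call. The differences of CD45-negative from CD45-positive cells (0.40, limma adjusted p = 0.198) and of CD45-positive cells from the ventricle (0.24, limma adjusted p = 0.373) did not pass. In passage-8 cells the level differed from CD45-positive cells by -0.14, from CD45-negative cells by -0.54 and from the ventricle by 0.10, each with SE 0.20.

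A set of 5 further genes bears on IGF2: the signalling receptors Igf1r and Insr and the mRNA-binding proteins Igf2bp1, Igf2bp2 and Igf2bp3. This set and the gene lists further below were written with earlier results of these data known. Their counts and p-values are therefore a description and not an independent test. In passage-8 against CD45-positive cells, 3 of the 5 passed and all 3 were higher, against 23.4% of all genes that passed in either direction and 12.5% that passed as higher. These were Igf2bp1 by 3.74 (SE 0.19, 13.3-fold, limma adjusted p = 5.33e-04), Igf2bp2 by 1.78 and Igf2bp3 by 1.36. Igf2bp1 read -0.18 and -0.33 on the passage-8 arrays and -3.98 and -4.00 on the CD45-positive. It read -3.94 and -3.92 on the CD45-negative and -7.05 and -6.88 on the ventricle arrays. Both ventricle arrays and 1 of the 2 CD45-negative arrays were not well above background. Passage-8 arrays were the highest for all 3 binding proteins and the ventricle arrays the lowest. Insr, the insulin receptor, was lower than in the ventricle in all 3 cell groups, with log2 differences of -2.65 for CD45-negative, -2.81 for CD45-positive and -2.07 for passage-8 cells. Igf1r passed in 1 comparison, CD45-negative above CD45-positive cells by 1.41 (limma adjusted p = 0.0382).

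Plagl1 encodes a zinc-finger transcription factor that regulates other members of the network. At the probe that stands for it, chr10:12850832-12850891 on the plus strand of mm9, its level was 7.34 and 7.23 in passage-8 cells. The ventricle read 2.35 and 2.60, CD45-negative cells -0.25 and 0.53 and CD45-positive cells -0.79 and -0.76. The 4 groups did not overlap, with passage-8 cells highest and CD45-positive cells lowest. Passage-8 cells were above CD45-positive cells by 8.06 (SE 0.30, 267-fold), above CD45-negative cells by 7.14 (141-fold) and above the ventricle by 4.81 (28-fold). The difference of CD45-negative cells from the ventricle was -2.34 (5.06-fold lower, SE 0.30, limma adjusted p = 0.00201), and that of CD45-positive cells, which has no test, was -3.25.

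The 4 Plagl1 probes did not give the same size of difference. In passage-8 against CD45-positive cells, the 2 downstream probes gave 8.06 and 8.18 and the 2 upstream probes 1.03 and 2.71. All 4 put passage-8 cells higher, and their mean gave 5.00 in place of 8.06. The downstream pair lies 448 bases apart yet shares a run of 26 bases and 46 of 60 letters, so these probes are not independent readings. The difference of CD45-negative cells from the ventricle was -2.31 and -2.34 at the downstream probes and -0.33 and -0.30 at the upstream probes.

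**Figure D2:**
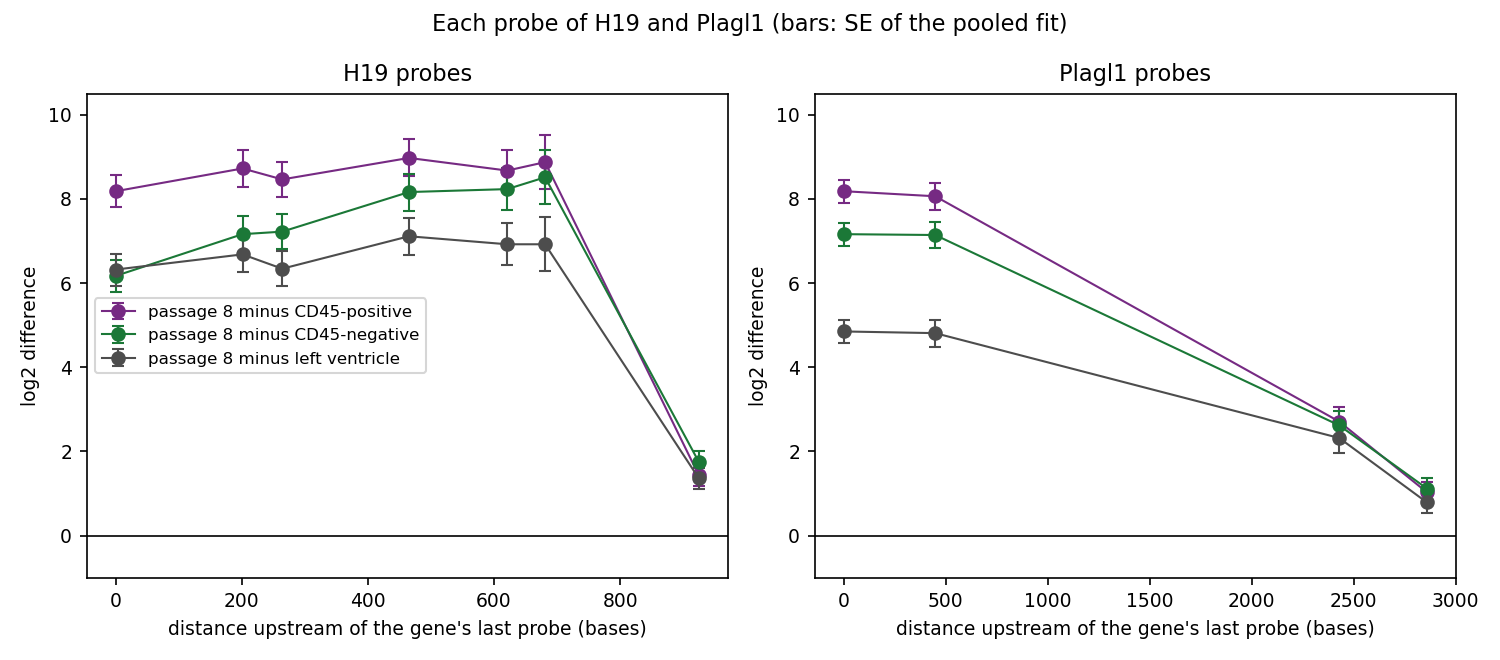
Log2 difference of passage-8 cells from each other group (vertical axis) at each probe of H19 (left) and Plagl1 (right), by distance in bases upstream of the gene's last probe (horizontal axis). Bars are the SE of the pooled fit. For H19 the 6 downstream probes lie between 6.17 and 8.97 and the most upstream probe between 1.36 and 1.75, and for Plagl1 the downstream pair lies above the upstream pair in all 3 comparisons.

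Dlk1 encodes a transmembrane protein with EGF-like repeats that holds preadipocytes and other progenitors back from differentiation. It gave the largest difference of the 10 genes in all 3 comparisons with passage-8 cells. At chr12:110698721-110698781 on the plus strand of mm9, its level was 6.69 and 6.67 in passage-8 cells. The ventricle read -2.83 and -3.56, CD45-negative cells -4.35 and -4.33 and CD45-positive cells -5.03 and -5.30. On the second array of each primary cell group the spot was not well above background. All 6 arrays outside passage 8 were dim, and passage-8 arrays were bright. The log2 difference of passage-8 cells was 11.84 (SE 0.29, 3679-fold) from CD45-positive cells, 11.02 (2082-fold) from CD45-negative cells and 9.88 (940.3-fold) from the ventricle. At the other Dlk1 probe, 219 bases upstream, all 6 arrays outside passage 8 were not well above background, and passage-8 cells were at least 857-fold, 403-fold and 655-fold higher in the same order. At the probe that stands for the gene, normexp background correction gave log2 differences of 9.96, 8.79 and 8.85.

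The log2 difference of Dlk1 between CD45-positive cells and the ventricle was -1.97 (SE 0.29, limma adjusted p = 0.00349), and the gene passed under each scaling tried. For CD45-negative cells it was -1.15 (SE 0.29, limma adjusted p = 0.0225), a call that many settings lost. It was 0.07 with normexp background (limma adjusted p = 0.879), -0.42 over both probes, of which the upstream one was below background in both groups, and -0.78 without the first ventricle array (limma adjusted p = 0.0628). Without the first or the second CD45-negative array it was -1.13 (limma adjusted p = 0.0564) or -1.16 (limma adjusted p = 0.0537).

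Meg3 is the maternally expressed noncoding RNA of the same domain, and it did not follow Dlk1. At its brightest probe, CD45-negative cells read 4.67 and 5.50, CD45-positive cells 4.31 and 4.53, passage-8 cells 5.08 and 4.99 and the ventricle 1.79 and 1.93. The 6 arrays of cells lay above both ventricle arrays. CD45-negative cells exceeded the ventricle by 3.23 (SE 0.31, 9.37-fold, limma adjusted p = 7.66e-04), and CD45-positive cells by 2.56 (5.89-fold, limma adjusted p = 0.00171). Passage-8 cells exceeded it by 3.18 (9.04-fold). Passage-8 cells differed from CD45-positive cells by 0.62 and from CD45-negative cells by -0.05, each with SE 0.31. Between the primary cell groups the difference was 0.67 (limma adjusted p = 0.169), and it was 1.08 without the first CD45-negative array (limma adjusted p = 0.0199). A further Meg3 probe put CD45-negative cells above the ventricle by 3.27, CD45-positive cells by 2.88 and passage-8 cells by 3.70, with 1 of the 2 ventricle arrays not well above background. At that probe CD45-negative cells exceeded CD45-positive cells by 0.39.

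Other genes of the Dlk1 domain were listed beside them. Begain, which codes for a synaptic scaffold protein and lies upstream of Dlk1, read 1.10 and 0.67 on the CD45-negative, -2.01 and -1.78 on the CD45-positive, 1.15 and 1.02 on the passage-8 and -4.47 and -4.33 on the ventricle arrays. It was higher than in the ventricle in all 3 cell groups, by 5.29, 2.51 and 5.48 in that order, and passage-8 cells exceeded CD45-positive cells by 2.98 (limma adjusted p = 0.00115). Mirg, a noncoding RNA downstream of Meg3, was also higher than in the ventricle, by 3.46, 2.37 and 3.89 in the same order, and all 3 passed. Dio3, the thyroid hormone-inactivating enzyme at the far end of the domain, was lower in passage-8 than in CD45-negative cells (log2 difference -2.39, limma adjusted p = 0.0385). Rtl1 was well above background on 1 of the 8 arrays, a passage-8 array. The gene order is that of the RefSeq table.

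Cdkn1c encodes a cyclin-dependent kinase inhibitor that slows cell division, and Grb10 encodes an adaptor that dampens insulin and IGF receptor signalling. The Cdkn1c probe lies at chr7:150644753-150644812 on the minus strand of mm9. The ventricle read 2.71 and 2.80, passage-8 cells 2.19 and 2.28, CD45-positive cells -1.85 and -1.83 and CD45-negative cells -2.50 and -2.62. Ventricle and passage-8 arrays were high and primary cell arrays low, with no overlap between any groups. The difference from the ventricle was -5.31 for CD45-negative cells (SE 0.19, 39.7-fold lower, limma adjusted p = 6.92e-05) and -4.59 for CD45-positive cells (24.1-fold lower, limma adjusted p = 1.03e-04). Passage-8 cells were above CD45-positive cells by 4.08 (16.9-fold) and above CD45-negative cells by 4.80 (27.8-fold), and differed from the ventricle by -0.52, each with SE 0.19. Between the primary groups, CD45-negative minus CD45-positive, it was -0.72 (limma adjusted p = 0.0406), under the 2-fold minimum.

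Grb10 levels, from the probe at chr11:11833165-11833224 on the minus strand, were -0.18 and -0.18 in CD45-negative cells and -1.69 and -1.77 in CD45-positive cells. They were -0.41 and -0.33 in passage-8 cells and -0.20 and -1.49 in the ventricle. CD45-positive arrays were the lowest, and the 2 ventricle arrays lay far apart. CD45-negative cells were above CD45-positive cells by 1.55 (SE 0.42, 2.92-fold, limma adjusted p = 0.0442), a call close to the threshold. It was lost on the array-median scale (limma adjusted p = 0.0888), with no filter on dim genes (0.0667), with the replicate number as a block (0.0541) and without any 1 of the CD45-negative, CD45-positive or passage-8 arrays. The limma adjusted p without 1 such array ran from 0.075 to 0.205. Neither primary group passed against the ventricle, with 0.67 for CD45-negative cells (limma adjusted p = 0.242) and -0.88 for CD45-positive cells (limma adjusted p = 0.14). These rest on the ventricle arrays: without the first, the CD45-negative difference was 1.31 (limma adjusted p = 0.0131), and without the second, the CD45-positive difference was -1.53 (limma adjusted p = 0.00958). Passage-8 cells exceeded CD45-positive cells by 1.36, and differed from CD45-negative cells by -0.19 and from the ventricle by 0.47.

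Mest, which encodes a protein of the hydrolase family, was high in the ventricle. From the probe at chr6:30698279-30698338 on the plus strand, the ventricle read 0.86 and 0.20, CD45-negative cells -2.15 and -3.34, CD45-positive cells -3.42 and -3.37 and passage-8 cells -2.17 and -2.12. No array of cells reached the ventricle range. The difference from the ventricle was -3.28 for CD45-negative cells (SE 0.44, 9.7-fold lower, limma adjusted p = 0.00222) and -3.92 for CD45-positive cells (15.2-fold lower, limma adjusted p = 0.00126). For passage-8 cells it was -2.68 (6.4-fold lower). All 3 Mest probes put each cell group below the ventricle, with differences from -3.92 to -2.67, although at the most upstream probe neither CD45-negative nor passage-8 arrays were well above background. Between the primary cell groups Mest differed by 0.64 (limma adjusted p = 0.323), or by 1.24 without the second CD45-negative array (limma adjusted p = 0.0436), whose level was the lower of the pair. At the brightest probe, passage-8 cells lay above CD45-positive cells by 1.24 and above CD45-negative cells by 0.60. The middle and the most upstream probe gave 0.42 and -0.11 against CD45-positive cells, and 0.30 and 0.32 against CD45-negative cells.

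Peg3 encodes a large zinc-finger protein and was dim throughout. At chr7:6658774-6658833 on the minus strand, the ventricle read -3.86 and -2.14, CD45-negative cells -4.90 and -3.03, CD45-positive cells -5.28 and -4.81 and passage-8 cells -5.54 and -6.64. The spot stayed near background on both passage-8 arrays, the first CD45-negative array and the second CD45-positive array. Passage-8 arrays gave the lowest readings at this probe, and ventricle and CD45-negative ranges overlapped. The ventricle was at least 5.57-fold higher than passage-8 cells there, and at least 1.58-fold higher at the other Peg3 probe. That other probe was well above background on the second ventricle array only. Its mean readings were -6.26 in passage-8, -6.37 in CD45-negative and -6.59 in CD45-positive cells. At the first probe, tests gave the following. CD45-negative cells differed from the ventricle by -0.96 (SE 0.84, limma adjusted p = 0.388) and CD45-positive cells by -2.04 (SE 0.84, limma adjusted p = 0.0989).

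Counted together, 7 of the 9 genes that entered the comparison of passage-8 with CD45-positive cells were at least 2-fold higher in passage-8 cells and 0 were at least 2-fold lower. Over all genes entered, 17.8% were at least 2-fold higher and 13.9% at least 2-fold lower. Against CD45-negative cells 5 of 9 were at least 2-fold higher and 0 lower, beside 12.9% and 11.2% of all genes. Against the ventricle 5 of 10 were higher and 2 lower, beside 23.4% and 22.0%. These counts used the contrasts that chose the genes, and nothing is read from them. Peg3 did not enter the first 2 comparisons because neither group was measured on both arrays.

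The comparisons without passage-8 cells carry a test. CD45-negative cells against the ventricle had 6 of 10 genes passing, beside 39.4% of all 22402 genes. The 1 higher was Meg3, and the 5 lower were Igf2, Plagl1, Dlk1, Mest and Cdkn1c, beside 20.2% higher and 19.2% lower over all genes. The median log2 difference of the 10 was -1.05, beside 0.06 over all genes. In CD45-positive cells against the ventricle 4 of 7 passed, beside 38.0% of all genes. Meg3 was higher and Dlk1, Mest and Cdkn1c lower, beside 18.2% and 19.7% of all genes, and the median was -1.97 beside -0.02. Of the same 7 genes, 5 entered CD45-negative against CD45-positive cells and 1 passed, Grb10, as higher, beside 21.7% of all genes that passed and 11.2% that passed as higher. Against the ventricle, Igf2 and Dlk1 in CD45-negative cells and Dlk1 in CD45-positive cells entered only through the ventricle arrays, where they were brighter. Peg3 entered both comparisons in the same way. Such genes could be counted as lower but hardly as higher, and both medians rest on them. Among genes well above background on all 8 arrays, 4 of 7 passed for CD45-negative cells (1 higher, 3 lower). For CD45-positive cells it was 3 of 5 (1 higher, 2 lower). The comparisons with the ventricle share its 2 arrays. Cardiomyocyte markers, summed above, moved with them: 7 of 7 were lower in each cell group than in the ventricle.

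**Figure D3:**
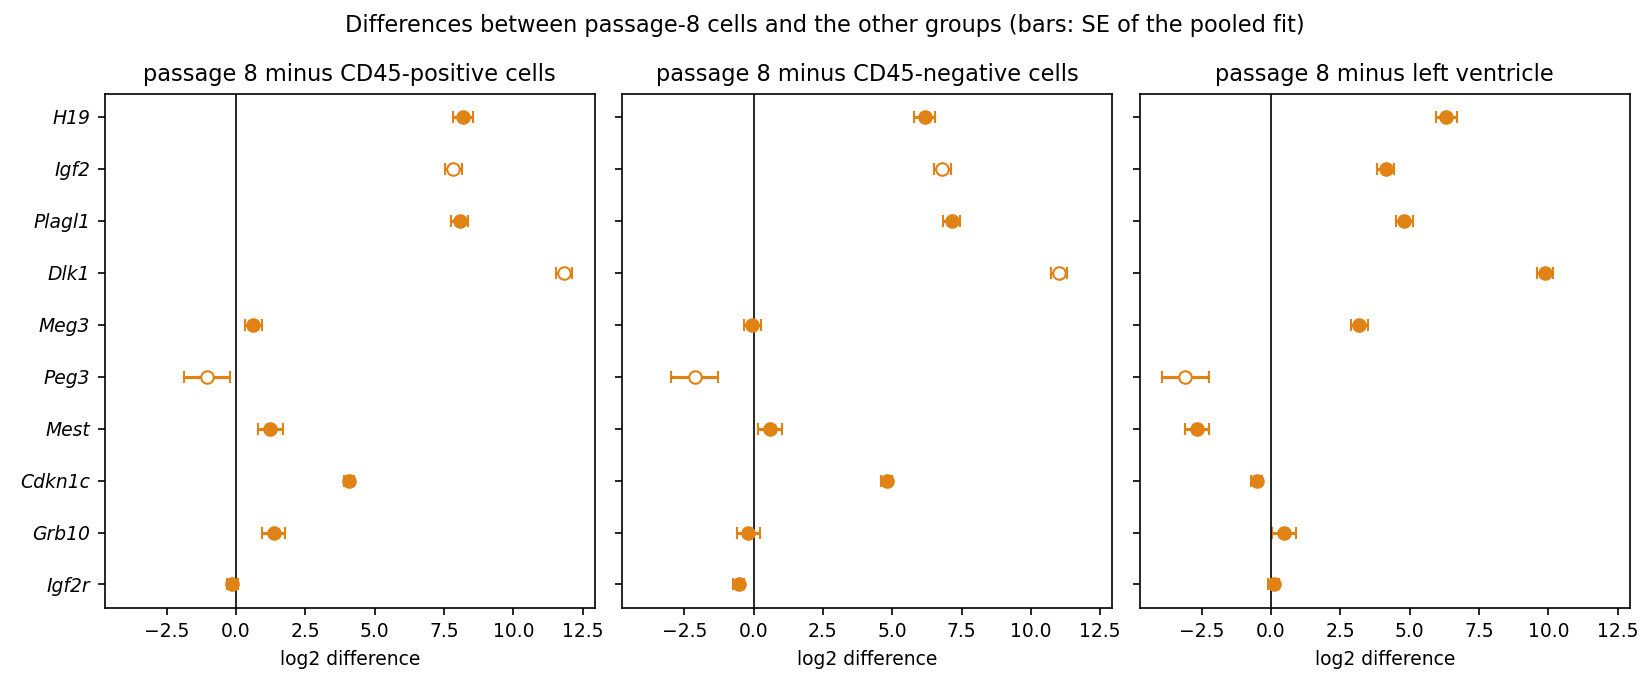
Log2 difference of passage-8 cells from CD45-positive cells, CD45-negative cells and the ventricle (horizontal axis) for each of the 10 genes (vertical axis). Bars are the SE of the pooled fit, and open points mark genes not well above background on at least 1 array of the pair of groups. Dlk1 lies farthest to the right in every panel, at 11.84, 11.02 and 9.88, while Igf2r lies within 0.54 of 0.

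Other imprinted genes were read from lists of 67 names, of which 63 are on the array. Rian, Hymai, Snurf and Nespas were not found by name. Of the 67, 28 are neighbours of the members in their imprinted domains, and whether each is itself imprinted was not checked. All are called other imprinted genes here. Passage-8 against CD45-positive cells had 48 of them entered, of which 7 were higher and 9 lower. That is 33.3%, beside 23.4% of all genes, with a median log2 difference of 0.12 beside 0.16. Against CD45-negative cells 3 were higher and 5 lower of 47 entered, or 17%, beside 13.8% of all genes. Passage-8 cells against the ventricle had 10 higher and 9 lower of 52, or 36.5%, beside 39.1%. Passage-8 cells thus had other imprinted genes passing in both directions. These lists too were written with earlier results of these data known, so the counts are a description.

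The remaining network genes on the list, Dcn, Gatm, Gnas, Ndn, Sgce and Slc38a4, gave 0 calls with limma in passage-8 against either primary group, where 5 of the 6 entered. At an unadjusted p under 0.05, 2 of the 5 would pass against CD45-positive cells and 0 against CD45-negative cells. Slc38a4, an amino acid transporter, read 0.28 and -0.18 in the ventricle and between -8.07 and -6.12 on the 6 arrays of cells, where it was not well above background. The ventricle was at least 19.8-fold, 42.2-fold and 48.7-fold higher than CD45-negative cells, CD45-positive cells and the passage-8 cells. Gatm, an enzyme of creatine synthesis, was higher than in the ventricle by 2.11 in CD45-positive cells and by 1.92 in passage-8 cells.

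Several neighbours of H19, Igf2 and Cdkn1c on chromosome 7 were lower in passage-8 than in CD45-positive cells. Ascl2, a transcription factor, read 0.75 and 0.81 in CD45-positive cells and between -3.42 and -2.06 on the other 6 arrays. Against CD45-positive cells its difference was -3.87 at passage 8 (limma adjusted p = 0.00154) and -3.32 in CD45-negative cells (limma adjusted p = 0.00356). Tspan32, a tetraspanin of blood cells, gave -3.30 and -3.95 in the same comparisons. Kcnq1, a cardiac potassium channel, read 3.43 and 2.23 in the ventricle and -1.32 and -1.15 in CD45-positive cells, and was not well above background in the other groups. It was at least 20-fold higher in CD45-positive cells and at least 335-fold higher in the ventricle than in passage-8 cells. The macrophage marker sum given above was also high in CD45-positive cells. Kcnq1ot1, the noncoding RNA of the Cdkn1c domain, and Cd81, Tssc4 and Ins2 did not pass between passage-8 and CD45-positive cells. Phlda2 was not well above background on any array.

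Elsewhere in the genome, Ppp1r9a and Sfmbt2, a Polycomb protein, were higher in passage-8 than in CD45-positive cells by 3.24 and 3.10. Asb4 was at least 38.2-fold higher in CD45-positive and at least 25.4-fold higher in CD45-negative cells than in passage-8 cells. Ddc, the aromatic amino acid decarboxylase beside Grb10, was at least 54.9-fold higher in passage-8 than in CD45-negative cells, with levels of 1.47 and 1.57 against -6.48 and -5.81. In the ventricle it read 0.78 and -0.46.

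**Figure D4:**
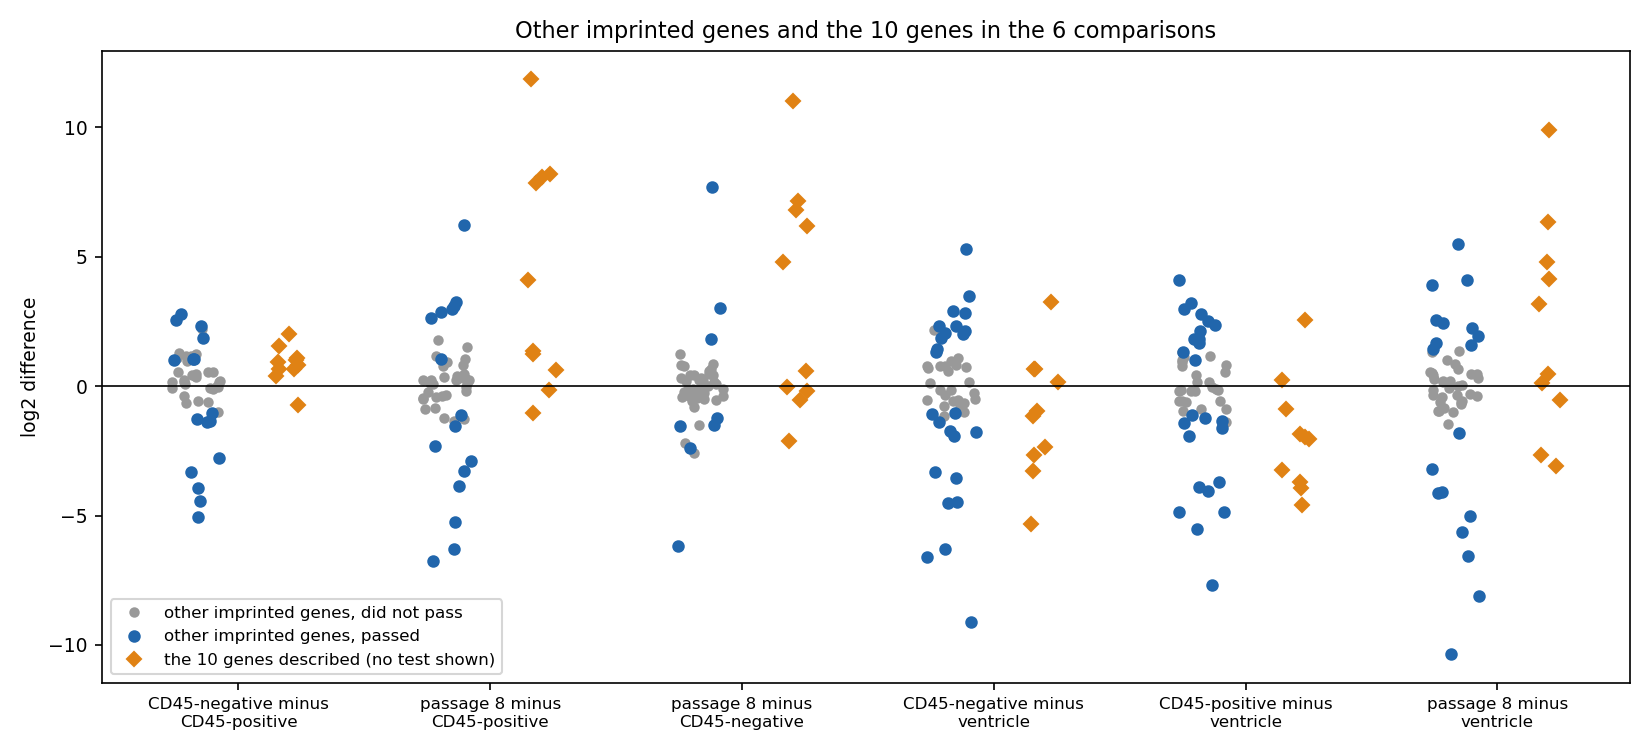
Log2 difference (vertical axis) of each other imprinted gene that entered a comparison (round points, blue where it passed) and of the 10 genes (orange diamonds, shown in all comparisons) in the 6 comparisons (horizontal axis). Blue points lie on both sides of 0 in every comparison, and the highest diamonds lie above all round points in the 3 comparisons with passage-8 cells.

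Enzymes and factors that keep or erase imprints were listed too, 14 genes in all, again with earlier results of these data known. In passage-8 against CD45-positive cells 4 of 13 entered were higher and 1 lower, beside 12.5% of all genes that passed as higher and 23.4% in either direction. Uhrf1, the partner of the maintenance methyltransferase, was higher by 1.82, Tet1 by 1.34, Trim28 by 1.17 and Dnmt3b by 1.03. Against CD45-negative cells 1 of 12 entered was higher and 1 lower, or 16.7%, beside 13.8% of all genes. Mean levels in passage-8 and CD45-negative cells were 3.21 and 3.04 for Uhrf1 and 3.84 and 3.37 for Trim28. They were -1.24 and -2.54 for Tet1 and -0.38 and -1.04 for Dnmt3b. Tet1 was highest in the ventricle, at -0.74. Dnmt3l, a cofactor of de novo methylation, was lower, with differences of -2.05 from CD45-positive cells and -2.97 from CD45-negative cells (limma adjusted p = 0.00292). Passage-8 cells read -2.52 and -2.41, CD45-positive cells -0.42 and -0.42, CD45-negative cells 0.82 and 0.18 and the ventricle -3.95 and -3.77. Dnmt1, the maintenance methyltransferase, was higher than in the ventricle in all 3 cell groups, by 2.43, 2.12 and 2.23 for CD45-negative cells, CD45-positive cells and the passage-8 cells.

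Close relatives of the members were read beside them. Cdkn1b, a kinase inhibitor related to Cdkn1c, was higher at passage 8 than in the CD45-positive precursors by 1.58 (limma adjusted p = 0.0254), and Cdkn1a, another, was lower (log2 difference -1.97, limma adjusted p = 0.044). Plag1, a relative of Plagl1, was higher in the ventricle than at passage 8 (passage 8 minus ventricle -1.70). Grb14, a relative of Grb10, was lower than in the ventricle in all 3 cell groups, by log2 differences of -2.73, -3.85 and -2.52 for CD45-negative cells, CD45-positive cells and the passage-8 cells.

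Pearson's r over the 8 arrays is a description, since the arrays are 4 groups of 2 and not 8 independent samples. H19, Igf2 and Plagl1 were chosen for their passage-8 level, which fixes a high r among genes high there. It was 0.991 for Igf2 and Plagl1, 0.983 for H19 and Dlk1, 0.966 for Plagl1 and Dlk1 and 0.950 for H19 and Plagl1. Cdkn1c, also high in the ventricle, had r of 0.561 with H19, 0.610 with Dlk1, 0.770 with Plagl1 and 0.807 with Igf2. Meg3 and Mest ran in opposite directions (r = -0.886), as did Cdkn1c and Igf2r (r = -0.825). The genes most like each member by this measure were sought among genes read above background in some group, with clone, LOC, accession and Rik names skipped. They were Camkv for H19 (r = 0.996), Cyp2s1 for Plagl1 (0.995) and Herc4 and Hoxa7 for Dlk1 (0.988 and 0.986). For Igf2 the nearest was Plagl1 itself. Hoxb6 was nearest to Cdkn1c (0.995), Cthrc1 to Meg3 (0.998) and Immp1l to Mest (0.998). Acta2, smooth muscle actin, was among the 3 nearest to Grb10 (0.977).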

How the data were processed

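Total RNA (200 ng) was labelled with Cy3, per the labels' protocols. The deposited scanner files hold spot intensity, processed and background-subtracted within the array per the file headers. The submitters' processing notes name Agilent Feature Extraction 10.7. The authors' value table, in log2 units, ranked as median signal minus background (rank correlation 1), by a tool not given in the sources used here. The 8 arrays share 1 slide and 1 scan day. The 75th percentile of signal ran from 426 to 976, and 51.5% to 69.9% of spots were well above background; the number of arrays limits the precision.

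Control and outlier spots were left out. From log2 of the processed signal the array's own 75th percentile was subtracted, and values were fitted with limma 3.58.1 in R 4.3.3 with 1 mean per group (4 residual degrees of freedom). A gene entered where both arrays of either group compared were well above background, and passed at a two-sided Benjamini-Hochberg adjusted p under 0.05 over all genes entered, given a change of 2-fold or more. An exact permutation of 2 against 2 arrays cannot go below p = 0.333. Data were also simulated with 21641 genes entered, 1 spread for all genes and groups, and changes placed in the CD45-negative group. There, 23 of 100 changes of 2 log2 units and 98 of 100 of 4 were recovered. The measured replicate spread differed by group (SD 0.545 in CD45-negative and 0.202 in CD45-positive cells). These shares therefore do not give the recovery in the measured comparison. The values of 1 Meg3 probe are not reported here. RefSeq symbols were matched for 27229 probes. The members and lists were chosen with earlier results of these data known. Named beside the members were genes that passed, up to 4 per direction and list, examples of genes of the domains, and some of the nearest by correlation (3 per member). Alternatives changed scaling, background, filter, probe choice, block, fit and arrays.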

Additional observations from a re-analysis of the deposited data

How the results depend on the processing

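The 60 differences of the 10 genes were recomputed under other settings, giving 733 values. Of these, 645 kept their direction and side of the threshold or moved by less than the spread between replicates, 18 no longer passed, 4 newly passed, 65 moved by more and 1 reversed. The reversal was Dlk1 in CD45-negative cells against the ventricle, 0.07 with normexp background; the cause was not tested. Of the 5 genes that entered CD45-negative against CD45-positive cells (7 were open to the test), 1 passed. That count was 0 on the array-median scale, 0 with no filter on dim genes, 0 with the replicate block, 2 with no minimum difference, and 0 to 1 without any 1 array. The counts of members against the ventricle were 4 to 7 under all settings for CD45-negative cells (6 as reported), and 3 to 5 for CD45-positive cells (4 as reported), with one array left out included. Of the other imprinted genes, 16 passed in CD45-negative against CD45-positive cells, but 7 when only those arrays were fitted, and 7 to 20 without 1 array. For passage-8 against CD45-positive cells, 16 became 10 when genes had to be well above background on all 8 arrays. For passage-8 against CD45-negative cells, 8 became 4 with that filter, 1 with only those arrays, and 2 to 13 without 1 array. Against the ventricle that filter, which tests fewer genes, gave 15 for CD45-negative cells (25 as reported) and 9 for passage-8 cells (19 as reported). Same-numbered replicates did not deviate together (correlations -0.169 to 0.165 over 18087 genes), so the numbers were not taken as pairs; as a block they changed no call other than Grb10 among the members, and moved the other imprinted counts by at most 2. A left-out array leaves its group with 1, which is assumed to vary like the others. Dim spots limit Igf2, Dlk1 and Peg3 in the primary cells.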
